A study of Drosophila melanogaster with 2 samples.

Results

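The dpr, DIP, beat and side genes encode neuronal cell surface and secreted proteins with immunoglobulin domains. They were taken as the protein-coding genes of the Ensembl annotation whose symbol is dpr with a number, or starts with DIP- or beat-, or is side or starts with side-. This gave 54 of 13968 genes on the chromosomes, of which 21 were dpr, 11 DIP, 14 beat and 8 side genes. Their occupancy by Oc was read from ChIP-seq of whole Drosophila melanogaster embryos collected at 2 to 14 hours. The embryos came from a transgenic line that stably expresses the homeodomain factor Oc (Ocelliless, or Orthodenticle) with GFP at its C terminus, and chromatin sheared to 200 to 800 bp was precipitated with an antibody against GFP. Biological replicates 2 and 3 formed a single group, both set by the depositors against 1 shared control alignment, so no condition could be compared and no test over samples was possible.

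Dpr and DIP proteins bind each other across synapses in a code of preferred partners, and Beat and Side proteins form a second such network. Side itself is an attractant on muscle and other substrates, read by motor axons that carry Beat-Ia, and other pairs act in the wiring of the visual system, the mushroom body and the neuromuscular junction. Oc patterns the embryonic head and brain and later acts in photoreceptors, and it belongs to the homeodomain class that recognises TAATCC. In whole embryos, binding in fewer cells and weaker binding per cell cannot be told apart.

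Oc summits were few at these genes. A gene counted as occupied when at least 1 summit was nearest to one of its transcription start sites among those of all protein-coding genes. The optimal set from the depositors' irreproducible discovery rate procedure, called the IDR set here, held 19.5% of the 30000 peaks of the pooled list. Its 11 summits at these genes lay at side-IV, with 6, beat-IIIc, with 2, and DIP-delta, DIP-eta and dpr20, with 1 each. These 11 are printed below on the plus strand of dm6, with 50 bases to each side of the summit, so that the sites under the peaks can be read beside their values. The window at the beat-IIIc start site lacks its 12 bases of 5' UTR. Capitals mark TAATCC, the related site TAAGCC and the homeodomain core TAAT, each searched on both strands, so that GGATTA is a TAATCC site read from the minus strand. The core is part of TAATCC and overlaps it.
side-IV, chr3R:13445586-13445686: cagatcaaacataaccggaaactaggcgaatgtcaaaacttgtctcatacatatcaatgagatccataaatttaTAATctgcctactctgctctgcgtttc
side-IV, chr3R:13454146-13454246: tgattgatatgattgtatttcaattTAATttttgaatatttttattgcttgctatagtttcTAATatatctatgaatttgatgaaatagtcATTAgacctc
side-IV, chr3R:13453013-13453113: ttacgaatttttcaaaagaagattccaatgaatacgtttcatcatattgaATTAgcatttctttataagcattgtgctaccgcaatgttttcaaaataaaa
side-IV, chr3R:13466641-13466741: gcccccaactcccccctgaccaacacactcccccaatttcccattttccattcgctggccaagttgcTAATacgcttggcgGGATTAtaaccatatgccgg
side-IV, chr3R:13454347-13454447: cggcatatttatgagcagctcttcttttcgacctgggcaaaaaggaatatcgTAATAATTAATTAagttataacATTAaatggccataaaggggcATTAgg
side-IV, chr3R:13448531-13448631: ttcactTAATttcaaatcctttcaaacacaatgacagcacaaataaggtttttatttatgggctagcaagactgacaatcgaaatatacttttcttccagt
DIP-delta, chr3L:5447232-5447332: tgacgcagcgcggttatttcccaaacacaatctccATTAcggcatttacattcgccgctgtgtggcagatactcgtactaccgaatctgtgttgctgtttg
DIP-eta, chr2L:5610223-5610323: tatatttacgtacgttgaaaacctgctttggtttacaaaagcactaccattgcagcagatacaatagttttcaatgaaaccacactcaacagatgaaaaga
dpr20, chr3L:857790-857890: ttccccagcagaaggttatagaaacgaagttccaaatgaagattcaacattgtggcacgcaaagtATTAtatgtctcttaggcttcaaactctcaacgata
beat-IIIc, chr2L:17260735-17260823: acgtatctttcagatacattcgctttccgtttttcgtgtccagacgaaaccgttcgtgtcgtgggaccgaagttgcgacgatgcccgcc
beat-IIIc, chr2L:17243438-17243538: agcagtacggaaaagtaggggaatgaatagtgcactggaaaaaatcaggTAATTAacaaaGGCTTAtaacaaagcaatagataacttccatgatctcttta

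Across the 11 windows, TAATCC stood in 1, at the side-IV summit 16101 bp downstream of the start site. TAAGCC stood in 1 (9.09%), at the intronic summit of beat-IIIc, and in 2 of 22 windows centred 500 bp to either side of the 11 summits (9.09%). It stood in 8.69% of all IDR windows and 3.95% of their flanks. The core TAAT stood in 9 of 11 windows (81.8%) and in 17 of 22 windows centred 500 bp to either side of these summits (77.3%). It stood in 70.9% of all IDR windows, 61.8% of their flanks and 49.7% of windows of the same length at all start sites. The share with TAATCC at these genes was 9.09% (95% Wilson interval 1.62 to 37.7), beside 8.30% of all IDR windows. It was 3.41% of the flanks of all IDR summits and 2.37% of all start site windows. In the flanks of the 11 summits it was in 0 of 22 windows. The number of summits leaves a wide interval, and a match of letters is a description of the window.

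Of the 53 genes with a territory, 5 had an IDR summit (9.43%, 95% Wilson interval 4.10 to 20.3), beside 21.1% of 13764 protein-coding genes. The territory of a gene is the sequence that lies nearest to its start sites, and it sets how many summits can fall to the gene. The gene left over, beat-IIIa, shares its only start site with CG34106 and therefore had no territory. CG34106 had 0 IDR summits and 1 pooled summit. The territories of the 53 genes were long, with a median of 23.8 kb against 4.33 kb over all genes, and 41 of the 53 were in deciles 9 and 10 of territory. Applying to each of the 53 the share of occupied genes among all other genes of its decile gave 21.9 genes, against the 5 observed, and 65.7 summits against 11. In decile 10, the longest, 3 of 28 members were occupied (10.7%), against 49.9% of 1349 other genes. In decile 9, 1 of 13 was occupied (7.69%), against 40.2% of 1363 other genes. The median number of IDR summits was 0 per gene among the members, among the other genes of either decile and over all genes. This comparison carries no test, since the genes were chosen with results of these data known.

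**Figure D1:**
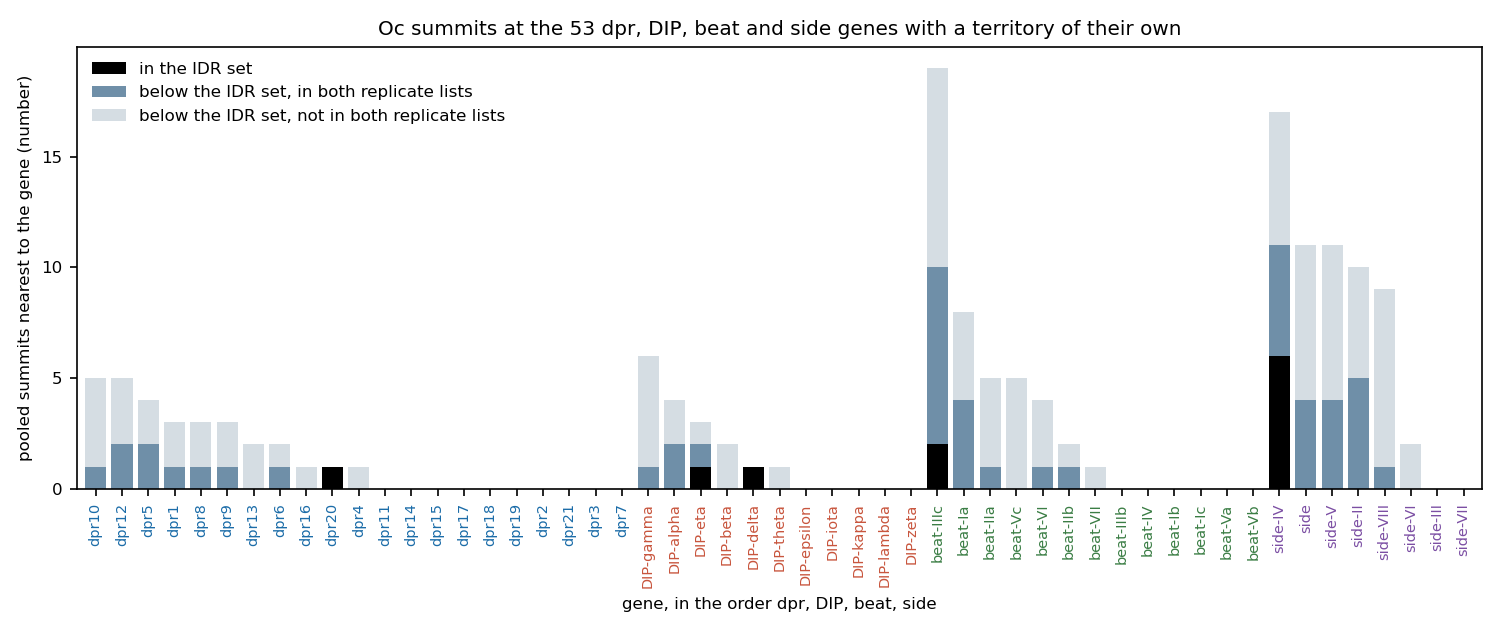
Number of pooled Oc summits (y axis) nearest to each of the 53 genes (x axis, grouped by family). Black parts are in the IDR set, blue parts lie below it with a summit in both replicate lists, and grey parts lie below it without one. Only side-IV, beat-IIIc, DIP-delta, DIP-eta and dpr20 have a black part, and 23 genes have no bar.

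The result was similar in each library taken alone. Among the strongest peaks of replicate 2, as many as the IDR set holds, 6 members were occupied with 13 summits (21.0% of all genes were), and among those of replicate 3, 5 members with 8 summits (21.7% of all genes). Other genes of like territory gave 22.1 genes in replicate 2 and 21.7 in replicate 3. Both replicates held side-IV, beat-IIIc, DIP-delta, DIP-eta and side-V, and replicate 2 also held dpr20. Among the IDR peaks above the median signal of 217, 2 members were occupied, side-IV with 2 summits and DIP-delta with 1, while 13.6% of all genes were occupied and genes of like territory gave 15.6.

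As a ratio to the number from genes of like territory, the members with a summit stood at 0.228 in the IDR set and at 0.820 in the whole pooled list, and their summits at 0.167 and 0.405. Among the 2000 strongest pooled peaks no member had a summit, beside 10.4% of all genes, where like territory gave 12.4 genes. Among the 10000 strongest, 11 members had one (20.8%), beside 27.7% of all genes and 26.9 from genes of like territory. In the whole pooled list, 30 members had at least 1 summit (56.6%, 43.3 to 69.0), beside 42.3% of all genes and 36.6 from genes of like territory. The members collected 151 pooled summits, where like territory gave 373. That is 6.95 summits per 100 kb of territory, or 10.9 without DIP-lambda and dpr21, against 21.8 over all genes. Of the 151, 11 belonged to the IDR set, 7.28% against 19.5% of all pooled summits, and their median signal was 50.8 against 70.7. The signal is the authors' value per peak, positive and on a scale that the sources used here do not state.

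**Figure D2:**
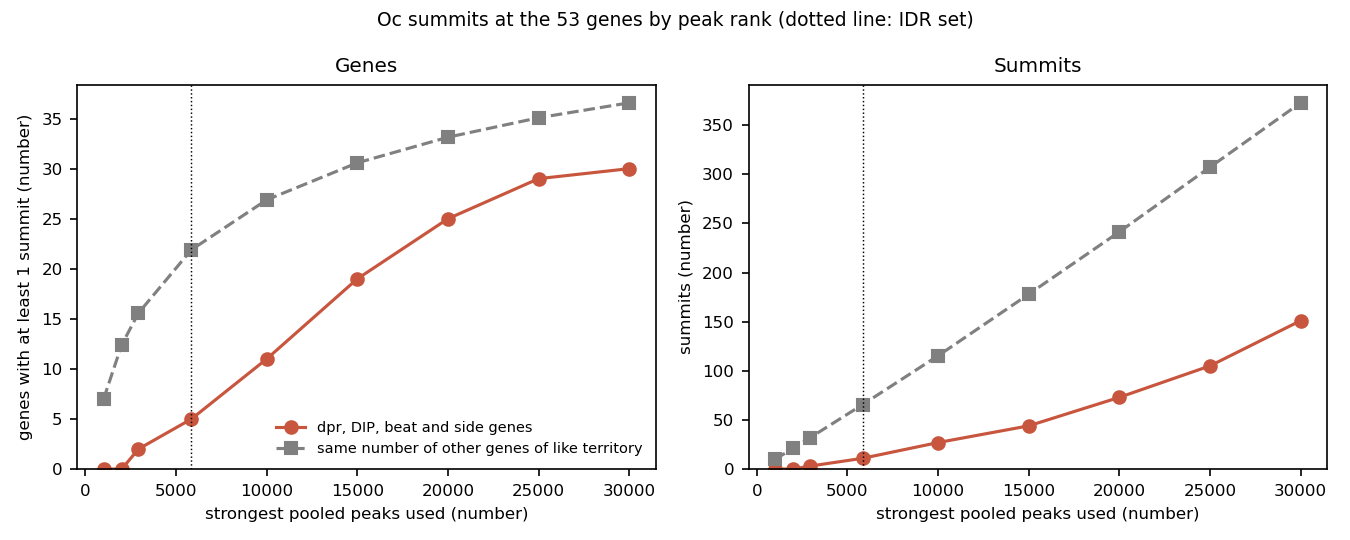
Number of genes with a summit (left, y axis) and number of summits (right, y axis) against the number of strongest pooled peaks used (x axis). Red circles are the 53 dpr, DIP, beat and side genes and grey squares the same number of other genes of like territory; at the IDR set (dotted line) these stand at 5 and 21.9 genes.

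The long territories of DIP-lambda, at 591 kb, and dpr21, at 198 kb, held no summit in any list. Both genes lie at the base of 2R, 5409652 bp (DIP-lambda) and 2669921 bp (dpr21) from the nearest IDR summit, and how well reads map there was not tested. The members had 0.506 IDR summits per 100 kb of territory with these genes and 0.794 without them, against 4.25 over all genes.

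The side genes held the most summits. Side proteins are the partners of the Beat family and span the membrane. In the pooled list 6 of 8 side genes had a summit (5.68 genes from like territory), with 60 summits where like territory gave 68.3, and 1 of 8 had an IDR summit (3.55 from like territory). Among them side-IV, the partner of the Beat-II proteins (FBgn0038156, 3R 13450590 to 13464184, plus strand), had 6 IDR summits. Of 1349 other genes in its decile of territory, 9.49% had at least as many IDR summits, and its pooled summits were 17. Its strongest summit lay 4954 bp upstream of the start site in intergenic sequence at 3R 13445636, with a pooled signal of 255 at rank 2174. The same summit had a signal of 144 in replicate 2, at rank 2042, and of 113 in replicate 3, at rank 2567. This was the strongest summit of all 53 genes.

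A group of 3 IDR summits lay in intronic sequence of side-IV. The first was 2473 bp downstream of the start site, with a signal of 193 (130.2 in replicate 2 and 62.3 in replicate 3). The second and the third were 3606 and 3807 bp downstream, with pooled signals of 233 and 171. Replicate 2 resolved this pair into separate summits, with signals of 155 and 64.4. Replicate 3 had a summit at the third, with a signal of 95.7, and none within 100 bp of the second, whose nearest replicate 3 summit was 167 bp away. It is the 1 summit of the 11 that was not found in both lists. The window of the third summit, printed above, shows several overlapping TAAT cores near its centre. A further IDR summit lay 2009 bp upstream of the start site, with a signal of 166 (92.5 in replicate 2 and 73.3 in replicate 3). The sixth, with the TAATCC site, lay 16101 bp downstream, beyond the 3' end of the gene and 196 bp from the start of the non-coding gene lncRNA:CR45914. Its signal was 184 (103 in replicate 2 and 83.7 in replicate 3). A summit 131 bp upstream of the side-IV start site itself stayed just below the IDR set, at a signal of 139 and rank 6340, with summits in both replicates. The lowest signal in the IDR set was 146.

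Of the 11 IDR summits, 4 lay nearer to the start of a non-coding gene, and they count for the member only because protein-coding start sites alone were used. These were the strongest side-IV summit, 1560 bp from lncRNA:CR45679 and 4954 bp from side-IV, and the one beside lncRNA:CR45914. The others were the only IDR summit of DIP-eta, 4957 bp from lncRNA:CR44795 and 7673 bp from DIP-eta, and the intronic summit of beat-IIIc, 3129 bp from lncRNA:CR44396 and 17246 bp from beat-IIIc. With start sites of every biotype, 7 summits at 4 members were left, without DIP-eta, where like territory gave 17.8 members. The share of all IDR summits that lie nearer to a non-coding start was not counted.

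**Figure D3:**
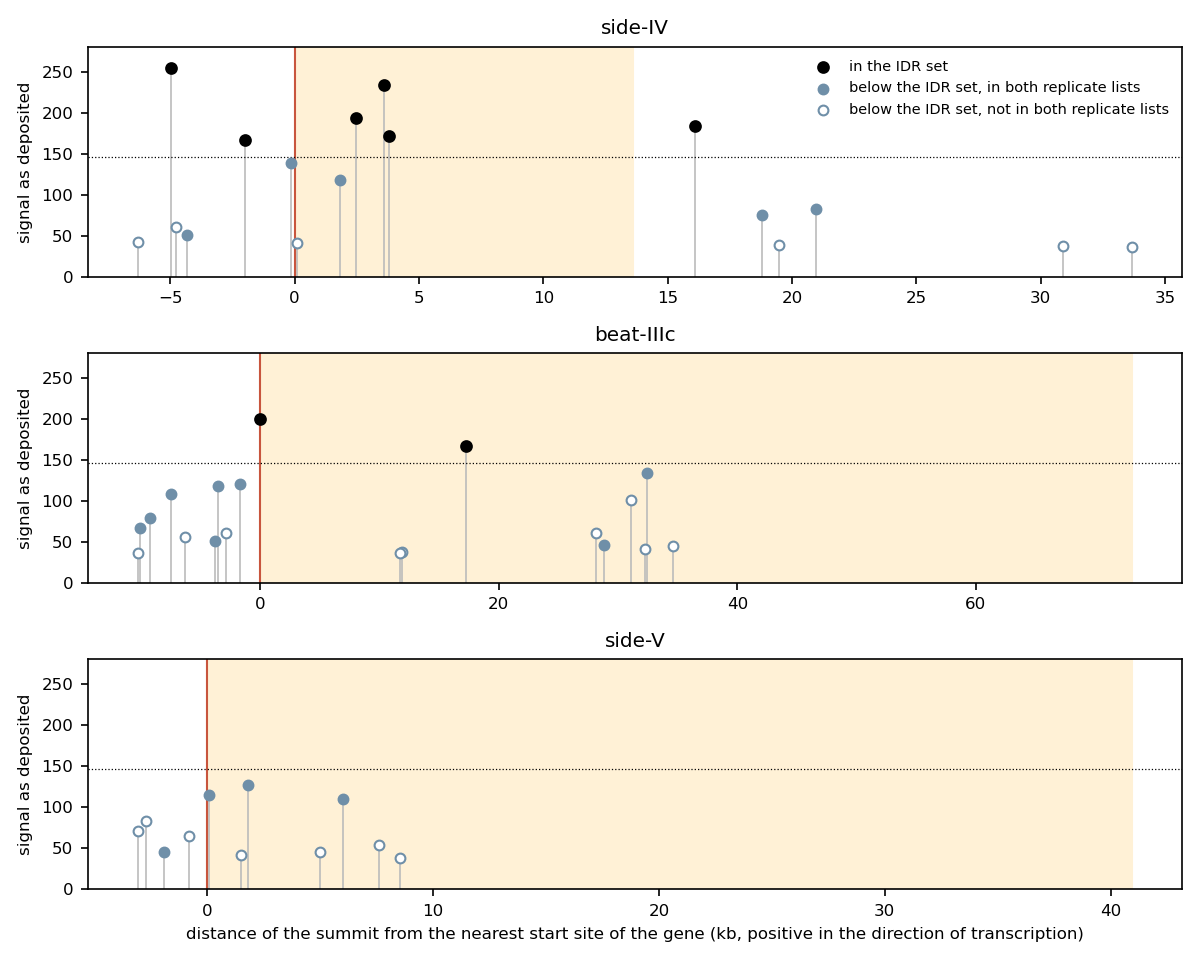
Pooled signal of each summit (y axis, as deposited) against its distance from the nearest start site of side-IV, beat-IIIc and side-V (x axis, kb, positive in the direction of transcription). Black points are in the IDR set, filled blue points lie below it and in both replicate lists, open points lie below it and not in both; the shaded band spans the gene, and the dotted line is the lowest signal of the IDR set, 146. The 6 IDR summits of side-IV lie on both sides of its start site, while every summit nearest to the side-V start site stays under the line. Summits inside a gene but nearest to another gene are not drawn, among them 3 IDR summits inside side-V.

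No other side gene had an IDR summit. The gene side-V (2R 23163012 to 23203973, minus strand) had 11 pooled summits in a territory of 13.6 kb, which made 81.1 per 100 kb, the highest density of the 53 genes. In its decile of territory 14.2% of other genes had at least as many. Its strongest summit was intronic, 1808 bp downstream of the start site, with a pooled signal of 127. Its signals were 84.6 in replicate 2, at rank 5261, and 35.0 in replicate 3, at rank 15610, so it ranked higher in replicate 2 than in replicate 3. A further intronic summit of side-V, 6015 bp downstream with a signal of 109.7, was in both replicates and held a TAATCC site. The gene side, the founding member, had 11 pooled summits in 35.8 kb, the strongest 30237 bp downstream in an intron with a signal of 113 (53.9 in replicate 2 and 53.8 in replicate 3). For side-II, the partner of Beat-VI, 10 pooled summits reached a signal of 85.4, and for side-VIII 9 reached 88.8. The gene side-VI, the partner of the Beat-V proteins, had 2, up to 67.0, and side-III and side-VII had none.

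The beat genes encode the partners of the Side proteins, some secreted and some held at the membrane. Pooled summits were found at 7 of the 13 beat genes with a territory (9.50 genes from like territory), 44 in all against 97.3 from like territory, and 1 gene had an IDR summit (5.74 from like territory). That gene, beat-IIIc (FBgn0032629, 2L 17187637 to 17260734, minus strand), had the most pooled summits of the 53 genes, at 19 in 52.2 kb. The median of other genes in its decile of territory was 6. Its stronger IDR summit was at the promoter, 39 bp upstream of the start site, with a signal of 200.1 (116 in replicate 2 and 90.2 in replicate 3), at rank 3379. It was the only IDR summit of the 11 within 500 bp of the start site of its own gene. The other lay 17246 bp downstream in an intron, with a signal of 167 (99.9 in replicate 2 and 59.5 in replicate 3), at rank 4709. Beside the promoter, a summit 1665 bp upstream, below the IDR set at a signal of 120, held a TAATCC site and was present in both replicates.

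Next in number among the beat genes was beat-Ia, the receptor for Side on motor axons, with 8 pooled summits up to 87.4 and none in the IDR set. Then came beat-IIa with 5 up to 56.4, beat-Vc with 5 up to 45.1, beat-VI with 4 up to 107, beat-IIb with 2 up to 67.5 and beat-VII with 1 at 43.5. The genes beat-Ib, beat-Ic, beat-IIIb, beat-IV, beat-Va and beat-Vb had none. The strongest summit of beat-VI stood in replicate 2 alone, at a signal of 47.8, with no replicate 3 summit within 100 bp.

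The DIP genes encode the partners of the Dpr proteins. Pooled summits were found at 6 of 11 DIP genes (7.44 genes from like territory), 17 in all against 76.1, and 2 genes had an IDR summit (4.43 from like territory). DIP-delta, the partner of Dpr12, had a single pooled summit and it was in the IDR set, in intergenic sequence 11123 bp downstream of the start site at 3L 5447282. Its signal was 244 (139 in replicate 2, at rank 2160, and 103 in replicate 3, at rank 3121), at pooled rank 2378. DIP-eta had an intronic IDR summit 7673 bp downstream, with a signal of 162 (79.6 in replicate 2 and 76.4 in replicate 3) at rank 4965, and its window held none of the marked motifs. DIP-gamma, the partner of Dpr11, had 6 pooled summits up to 77.6, DIP-alpha, the partner of Dpr6 and Dpr10, had 4 up to 79.8, DIP-beta had 2 up to 59.9 and DIP-theta had 1 at 44.7. DIP-epsilon, DIP-iota, DIP-kappa, DIP-lambda and DIP-zeta had none.

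The dpr genes form the largest family. Pooled summits were found at 11 of 21 dpr genes (14.0 genes from like territory), 30 in all against 131, and 1 gene had an IDR summit (8.19 from like territory). It was dpr20, with a single pooled summit 592 bp upstream of the start site. Its signal was 212 at rank 3042 (119 in replicate 2, at rank 2918, and 68.5 in replicate 3, at rank 6476). The gene dpr9 came closest of the others, with an intronic summit 2297 bp downstream at a signal of 135 and rank 6545, which had signals of 60.6 in replicate 2 and 61.6 in replicate 3. Then followed dpr1, whose loss alters the proboscis extension response to salt, with a summit 1823 bp upstream at 116 (59.3 in replicate 2 and 49.3 in replicate 3), and dpr5 at 116 (52.5 in replicate 2 and 60.6 in replicate 3). The partners of DIP-alpha had 5 summits up to 62.8 at dpr10 and 2 up to 81.6 at dpr6, whose stronger one was 249 bp upstream of the start site. Further genes were dpr12 with 5, dpr8 with 3, dpr13 with 2 and dpr4 and dpr16 with 1 each. The genes dpr2, dpr3, dpr7, dpr11, dpr14, dpr15, dpr17, dpr18, dpr19 and dpr21 had none.

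**Figure D4:**
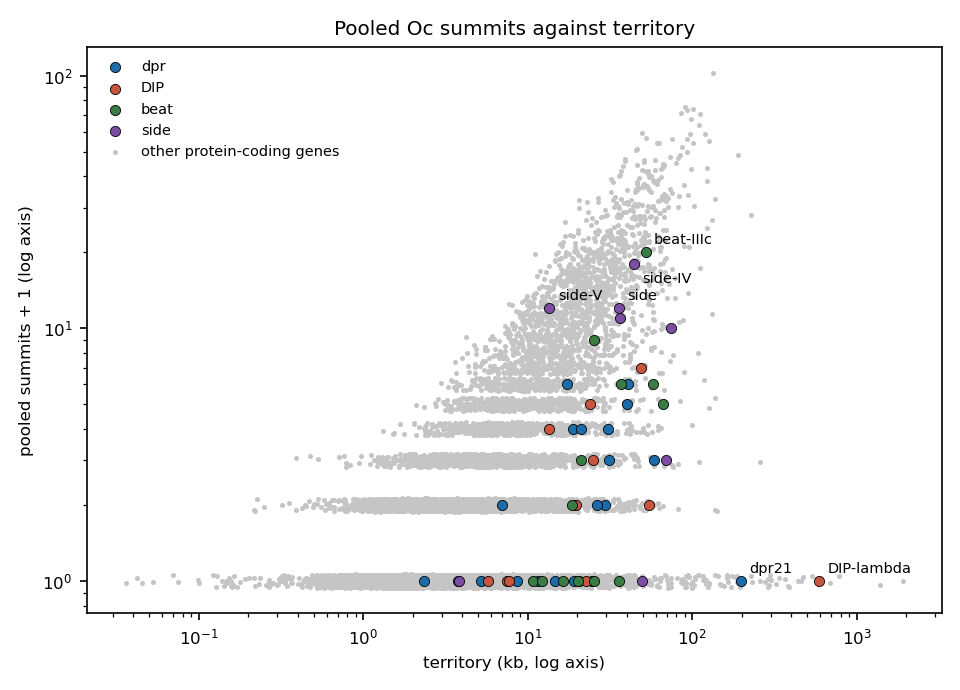
Pooled Oc summits plus 1 (y axis, log scale) against territory in kb (x axis, log scale) for each gene. Coloured points are the dpr, DIP, beat and side genes and grey points the other protein-coding genes, spread slightly along y. Most coloured points lie low among the grey points of the same territory, while side-V, side-IV and beat-IIIc lie within the upper part.

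Of the 23 members with no pooled summit, 4 had one in a replicate list. These were dpr17 with 3, side-III with 2 and dpr15 with 1, all in replicate 2, and dpr19 with 1 in replicate 3. The other 19 had no summit in any of the 4 lists. Neither the 4 nor the 19 was counted for other genes, so they cannot be called particular to the members. A pooled summit was found at 42.3% of all genes. Pooled summits below the IDR set were found at 28 members (52.8%, against 37.4% of all genes), where like territory gave 35.5. Pooled summits shared by both replicate lists were found at 22 (41.5%, against 33.5% of all genes), where like territory gave 31.5. Replicate 2 had summits at 33 members (62.3%, against 43.9% of all genes), where like territory gave 38.5. Replicate 3 had them at 26 (49.1%, against 44.7% of all genes), where like territory gave 35.3. The replicate lists held 147 summits at members in replicate 2 and 116 in replicate 3, where like territory gave 373 and 357.

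Of 11 partner pairs considered (Dpr10 and Dpr6 with DIP-alpha, Dpr11 with DIP-gamma, Dpr12 with DIP-delta, Beat-Ia with Side, both Beat-II proteins with Side-IV, the 3 Beat-V proteins with Side-VI, and Beat-VI with Side-II), 0 had IDR summits at both genes and 3 had them at 1 gene. Of these, side-IV had 6 IDR summits while beat-IIa and beat-IIb had 0, and DIP-delta had 1 while dpr12 had 0. Pooled summits were present at both genes in 8 of the 11 pairs. Singly, IDR summits were found at 9.43% of members and 21.1% of all genes, and pooled summits at 56.6% of members and 42.3% of all genes. The pairs share genes and are not independent.

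Most summits at members lay far from start sites. Of the 151 pooled summits 121 were over 2000 bp from the start site (80.1%, 73.1 to 85.7), against 61.1% of all pooled summits. Pooled summits of other genes taken at the same ranks gave 64.2%. Neither comparison was matched for territory. The 23 other immunoglobulin genes described below, of a similar median territory, gave 79.3% (192 of 242), close to the share of the members. The distance a summit can have grows with territory, which is long for these genes. The intervals given for shares of summits treat them as independent, though 91 of the 151 lay at 8 genes. By annotation, 82 of the 151 were intronic (54.3%, against 48.1% of all pooled summits) and 45 intergenic (29.8% against 25.5%). Within 500 bp of an annotated start site lay 22 (14.6%, 9.82 to 21.1), against 18.7% for other summits at like ranks. Coding exons and 3' UTRs held 0 of 151, but they held only 1.16% and 1.11% of all pooled summits. For 64 of the 151 a non-coding gene had the nearest start site of any annotated gene. The same share over all pooled summits was not counted, so the 64 cannot be called particular to these genes.

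Replicate agreement was set beside that of other summits of like rank. Both replicate lists held 57 of the 151 pooled summits (37.7%, 30.4 to 45.7), against 54.6% of all pooled summits and 39.2% of other summits at like ranks. Replicate 2 held 67.5% and replicate 3 55.0%, where like ranks gave 66.1% and 61.1%. In the IDR set 10 of 11 were in both, against 93.6% of all IDR summits, a set derived from these same lists. Across the 57 summits in both, the signals of the replicates correlated with a rho of 0.711 (Spearman) and, as log2 values, an r of 0.747 (Pearson), beside a rho of 0.758 and an r of 0.823 across all 16369 such pooled summits. These are descriptions across summits that share libraries and the control.

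**Figure D5:**
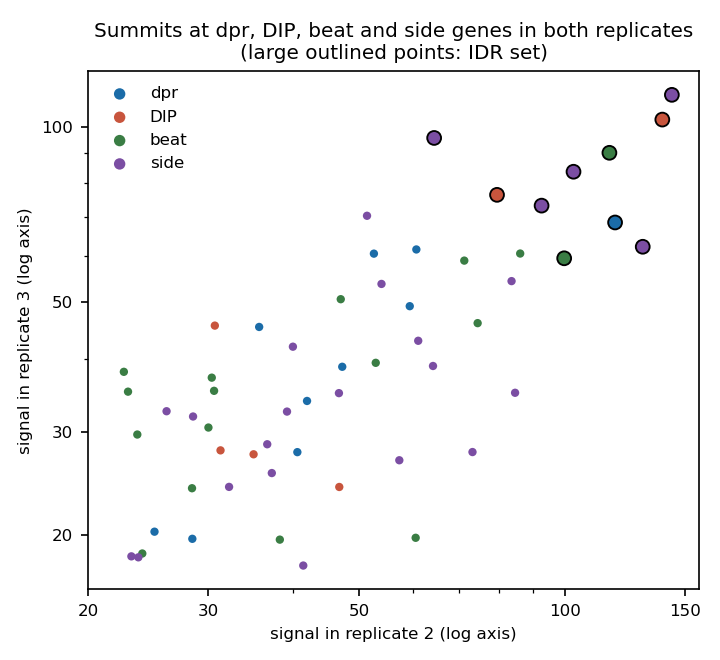
Signal in replicate 3 (y axis, log scale) against signal in replicate 2 (x axis, log scale) for the 57 pooled summits at dpr, DIP, beat and side genes found in both lists. Large outlined points are in the IDR set and colours give the family; 10 outlined points occupy the upper right.

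TAATCC stood in 11 of the 151 pooled windows (7.28%, 4.12 to 12.6), at 8 genes, against 5.91% of all pooled windows and 2.32% of the members' own flanks. At like ranks other summits gave 5.31%. The core TAAT stood in 68.9% of the 151 windows and 68.2% of their flanks. Of the 11 windows, 4 had summits in both replicates. The one at side-IV is printed above. The one in the side gene with the highest density was given with that gene, without its sequence. Those at beat-IIIc and 25316 bp inside side, 495 bp from the start of lncRNA:CR45991, are shown because their TAATCC site lies under a summit seen in both libraries:
beat-IIIc, chr2L:17262349-17262449: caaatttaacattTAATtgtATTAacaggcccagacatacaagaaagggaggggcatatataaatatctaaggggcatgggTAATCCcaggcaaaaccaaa
side, chr3R:27412116-27412216: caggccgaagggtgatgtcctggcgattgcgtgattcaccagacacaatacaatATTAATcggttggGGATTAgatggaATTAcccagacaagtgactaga

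Some strong IDR summits lay inside members but nearest to the start site of another gene. The bodies of 4 member genes held 11 such summits. In beat-Ib, a paralogue of beat-Ia, 6 IDR summits lay within the gene and nearest to the start sites of CG13244 or CG31821. The strongest were at 2L 15912120, with a signal of 864 (502 in replicate 2 and 366 in replicate 3), and at 2L 15911266, with a signal of 813 (480 in replicate 2 and 325 in replicate 3). They flank the start of the non-coding gene lncRNA:CR44867, at 429 and 425 bp from it. A weaker summit of the same group, at 2L 15908371 with a signal of 199.5, held 1 TAATCC and 2 TAAGCC sites and was found in replicate 2 (142) but not within 100 bp in replicate 3. DIP-alpha held a summit nearest to ppk8 with a signal of 563 (309 in replicate 2 and 250 in replicate 3), 213 bp from the start of lncRNA:CR34335. In beat-VII a summit with a signal of 470 (207 in replicate 2 and 263 in replicate 3) lay 700 bp from the start site of Tb. The windows of the strongest are shown for comparison with the weaker summits nearest to the members' own start sites, with that of the TAATCC summit in beat-Ib, in the same capitals:
within beat-Ib, chr2L:15912070-15912170: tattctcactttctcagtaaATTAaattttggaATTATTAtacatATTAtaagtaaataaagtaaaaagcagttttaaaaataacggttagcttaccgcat
within beat-Ib, chr2L:15911216-15911316: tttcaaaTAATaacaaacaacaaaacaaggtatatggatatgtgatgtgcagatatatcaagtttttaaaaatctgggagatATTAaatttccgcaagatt
within beat-Ib, chr2L:15908321-15908421: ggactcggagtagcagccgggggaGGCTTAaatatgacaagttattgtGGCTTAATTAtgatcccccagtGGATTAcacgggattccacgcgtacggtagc
within DIP-alpha, chrX:3546273-3546373: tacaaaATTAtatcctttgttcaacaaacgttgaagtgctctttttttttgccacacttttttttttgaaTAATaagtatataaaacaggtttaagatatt
within beat-VII, chr3R:26655690-26655790: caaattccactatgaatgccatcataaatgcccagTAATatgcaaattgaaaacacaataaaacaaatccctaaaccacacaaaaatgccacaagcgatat

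The gene side-V held the remaining 3, nearest to CG13539, with signals of 226, 197 and 148. The one with a signal of 197 held both TAATCC and TAAGCC and was in both replicates (127 in replicate 2 and 78.0 in replicate 3). Counting every summit inside a gene or up to 2000 bp upstream of it, shared between overlapping genes, gave 9 of 54 members with an IDR summit and 19 summits. Genes of like length gave 29.8 members on that count. This count added beat-Ib, side-V, DIP-alpha, beat-VII and dpr14 and lost DIP-delta, whose summit lies beyond its 3' end. For dpr14 an IDR summit nearest to spidey lay 414 bp from its start site, with a signal of 409. Of the 53 members, 40 had their nearest IDR summit of any gene more than 20 kb from every start site, a count not made for other genes. The median of this distance was 41086 bp for the members and 8885 bp over all genes. The median distance was 59456 bp for members in decile 10 of territory, against 9782 bp for other genes there. In decile 9 the medians were 26226 bp for members and 9966 bp for other genes.

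Other genes of the immunoglobulin superfamily were counted the same way, from a list of 23. It holds Fas2, Fas3, Nrg, the 4 Dscam genes, 3 robo genes, fra, Lar and others. Among these others are kirre, rst, sns, hbs, Lac and wrapper, and the list is not limited to genes of neurons. Of the 23, 13 had an IDR summit (56.5%, 36.8 to 74.4), where like territory gave 9.59. The 23 held 34 summits, 9 of them at kirre, where like territory gave 29.2. Their median territory was 24.8 kb, close to that of the members. The strongest IDR summits were at tutl (signal 581), Lac (581), kirre (507) and klg (491). The counts of 5 of 53 members and of 13 of 23 genes in this list are given side by side, with no test of their difference. Both shares rest on the genes listed, and the relation to Oc in any single cell type was not measured.

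Over the arms, the members with an IDR summit were on 2L (2 of 16), 3L (2 of 4) and 3R (1 of 21), and none of the 7 on 2R, 5 on X or 1 on 4 had one. The 16 on 2L include beat-IIIa, which has no territory and could not be given a summit. Over all genes the share with an IDR summit ran from 19.9% on 2R to 23.1% on 3L, with 8.75% on 4.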

How the data were processed

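Peak lists from ChIP-seq of 2 libraries (biological replicates 2 and 3, 1 group) were used: 1 for each replicate, 1 for the pooled alignments and the IDR list, all on dm6 and set against 1 control alignment, per the deposited description. Reads per library, the alignment and peak calling tools and the threshold of the IDR step are not given in the sources used here, so depth is unknown, and intervals cover counting error only. The signal values were deposited by the authors on a scale that was not stated, and the authors gave q-values as -log10. Summit positions come from the offsets the authors deposited. The IDR peaks are the pooled peaks with the highest signal. The replicate and pooled lists were deposited with 30000 peaks each.

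Summits were assigned to the nearest start site of a protein-coding gene (Ensembl 115, BDGP 6.54). Of 13968 genes, 204 share all start sites with another gene and were left out. Promoters reach 500 bp from any annotated start site, and summits were shared within 100 bp. Numbers from like territory apply to each member the mean of the other genes in its decile of territory, and those from like ranks do the same over 10 bins of pooled rank. Sequences are from the RefSeq genome of release 6. The software was scipy 1.17.1, pandas 2.3.3 and numpy 2.4.6 under Python 3.11.15, with figures from matplotlib 3.10.9, and the functions were tested on simulated data. The members, the list of other immunoglobulin genes, the partner pairs and the alternatives were chosen with earlier results of these data known. Every member is named, with full values for the strongest IDR summit of each member that has one and for members with 3 or more. Values are given for the 4 genes of the other list with the highest signal. The alternatives changed the peak list, the assignment to genes, the bins of territory, promoter width, windows and the distance for shared summits.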

Additional observations from a re-analysis of the deposited data

How the results depend on the processing

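In each alternative tried, fewer members had an IDR summit than like territory gave. Among the IDR peaks above the median signal 2 members had one, with 3 summits (dpr 0, DIP 1, beat 0, side 1, other immunoglobulin genes 8). The median signal of the 3 was 244 against 193 for all 11 IDR summits at members, a rise that follows from selecting by signal. TAATCC was in 0 of the 3 windows (0%). With either replicate alone, 5 to 6 members had one, with 8 to 13 summits, and TAATCC was in 7.69% to 12.5% of windows. By family this was 0 to 1 dpr gene, 2 DIP genes, 1 beat gene, 2 side genes and 12 to 13 of the other immunoglobulin genes. With start sites of every biotype the members had 7 summits at 4 genes, and gene bodies with 2000 bp upstream gave 19 at 9 genes. The 10000 strongest pooled peaks, a list chosen after seeing the data, gave 11 members with 27 summits, while 27.7% of all genes were occupied. By family these were 4 dpr, 2 DIP, 2 beat and 3 side genes, and 15 of the other immunoglobulin genes had a summit. Shared within 200 bp, 100% of the 11 summits were in both replicates, and 72.7% within 50 bp. Windows reaching 25 bp to either side held TAATCC in 0% and those reaching 100 bp in 27.3% (3 of 11), and promoters within 1000 bp held 27.3% of the summits (3 against 2). The most 5' start site of each gene and 20 bins of territory left 5 members, with 21.2 and 22.4 from like territory, and flanks at 1000 bp held TAATCC in 4.55%. The numbers rest on 11 summits, of which side-IV has 6. No paired analysis was possible because the replicates form a single group.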
